A study of Mus musculus with 12 samples.

Results

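CCR2low cardiac macrophages of Bhlhe41dTomato-Cre+/- mice were compared with CCR2low cardiac macrophages of wild-type mice, with every difference given as Bhlhe41Cre minus WT. The members are the autosomal genes with enough counts to be tested, 14452 of 53801 genes listed, and each group held 3 libraries. Both groups came from hearts of C57BL/6N mice after myocardial infarction (MI), produced by tying off the left anterior descending coronary artery, so there was no group without infarction. The Bhlhe41Cre mice carried 1 copy of an insertion of dTomato and Cre at Bhlhe41. Labels give all mice as male, although for the Bhlhe41Cre samples the strain and the sex stand in fields named for other things. They do not say how long after the infarction hearts were taken or how many animals stand behind a library. The p values therefore measure the spread between these libraries, which may be technical. Another 3 libraries of each genotype, from CCR2hi cells, shared the fit and its estimate of spread.

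Bhlhe41 and its close relative Bhlhe40 are basic helix-loop-helix repressors that bind the E-box CACGTG and form a feedback loop of the circadian clock, in which they oppose the activators CLOCK and BMAL1. In the heart, macrophages with little of the chemokine receptor CCR2 include long-lived resident cells, which carry markers such as Lyve1 and Timd4, whereas CCR2-high cells derive largely from blood monocytes. After an infarction both take part in clearing dead cells and in scar formation.

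E-boxes lie in the promoters of Bhlhe41 itself and of Per1, a clock gene that was lower in the Bhlhe41Cre libraries. Both are shown because the clock genes are described first and these hold the motif, with the E-box in capitals, 5′ to 3′, from RefSeq on GRCm38.p6.
Bhlhe41 promoter, chr6:145865371-145865670, minus strand: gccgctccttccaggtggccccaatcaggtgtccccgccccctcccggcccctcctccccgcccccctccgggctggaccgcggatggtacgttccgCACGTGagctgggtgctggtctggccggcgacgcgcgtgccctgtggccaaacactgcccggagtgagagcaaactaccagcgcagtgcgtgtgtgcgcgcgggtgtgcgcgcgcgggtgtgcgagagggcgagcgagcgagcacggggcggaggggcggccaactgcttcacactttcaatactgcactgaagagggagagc
Per1 promoter, chr11:69098699-69098998, plus strand: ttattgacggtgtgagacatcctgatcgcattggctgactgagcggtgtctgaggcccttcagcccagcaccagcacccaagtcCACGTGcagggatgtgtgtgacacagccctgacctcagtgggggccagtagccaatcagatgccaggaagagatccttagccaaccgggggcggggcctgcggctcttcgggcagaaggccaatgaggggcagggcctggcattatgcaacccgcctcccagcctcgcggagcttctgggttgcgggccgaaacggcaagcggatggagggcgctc
In these windows of 300 bases (250 before to 50 after a start site) the E-box began 153 bases before the start of Bhlhe41 and 166 before that of Per1, in 1 of its 2 windows. Of the autosomal genes tested that carry a unique symbol, 10641 had such a window. A CACGTG, which reads the same on both strands, stood in at least 1 window of 11.4% of them, of 14.2% of those higher in Bhlhe41Cre and of 9.82% of those lower. No CACGTG stood in the windows of the clock genes Clock and Nfil3, and 1 stood in that of the chemokine gene Cxcl3, shown further below in lower case. A match is a run of letters and not a measured binding site.

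Total counts were about 18780000 to 20827000 per CCR2low library. Levels are given as CPM, a gene's count scaled to a fixed library total. Across log2 CPM of the autosomal genes, libraries of 1 genotype correlated at 0.976 to 0.988 and libraries of different genotypes at 0.932 to 0.955. Xist, the RNA that coats the inactive X chromosome of females, had 0 counts in each WT library and 3699, 2983 and 2027 counts in Bhlhe41Cre replicates 1, 2 and 3. The summed Y-linked genes were at 35.6, 41.5 and 45.7 CPM in WT and 62.2, 78.9 and 6.17 CPM in Bhlhe41Cre. Xist was thus present in all 3 Bhlhe41Cre libraries, which the labels call male, and sex and genotype cannot be told apart for any gene below. The WT samples were also registered as a block, and the Bhlhe41Cre samples as a separate, later block. Any difference in preparation or sequencing between these blocks cannot be told apart from genotype either. The CCR2hi libraries that share the fit held 2519 to 10510 CPM of macrophage identity genes, and 41966 to 93206 CPM of fibroblast markers.

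Macrophage identity genes, the defining markers of the sorted cells, were present at like levels. The list has 20 genes and 21 tested entries, because Itgam has 2 identifiers, and these summed to 40018, 40567 and 35833 CPM in WT and 35038, 32166 and 39692 CPM in Bhlhe41Cre. Of the entries, 1 higher and 1 lower of 21 were called. The common leukocyte antigen Ptprc (0.83 ± 0.20, adjusted p = 0.0053; 0.03 with GC and length correction, adjusted p = 0.897) was the higher one and the fractalkine receptor Cx3cr1 (-1.47 ± 0.34, adjusted p = 0.00375) the lower one. In bulk libraries, fewer cells of a type and less RNA per cell cannot be told apart. Ccr2 (chr9:124101950-124113557; positions are on GRCm38, from GENCODE M21), whose protein was the basis of the sort, was at 38.5, 38.5 and 17.6 CPM in WT and 72.9, 60.8 and 96.7 CPM in Bhlhe41Cre. The groups did not overlap, and it was higher as fitted (1.28 ± 0.30, adjusted p = 0.00439; 0.54 with GC and length correction, adjusted p = 0.332), with adjusted p over all alternatives from 7.94e-05 to 0.332.

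Changes are given as log2 fold change ± standard error, so that 1 is a doubling. At an adjusted p under 0.05 (edgeR's quasi-likelihood test, Benjamini-Hochberg), 2331 autosomal genes were higher and 3903 lower in Bhlhe41Cre, together 43.1% of those tested (16.1% higher, 27% lower). Of the called genes, 2932 changed by more than 2-fold. CPM ranges of the genotypes did not overlap for 51.5% of tested genes, and both held, in the direction of the call, for 2117 higher and 3703 lower genes. The median change over all tested autosomal genes was -0.19, so small negative changes are close to the middle of all genes. This centre, and the split between directions, moved with the libraries and genes that entered the fit. Higher genes were 37.4% of calls as fitted, 52.6% when the 6 CCR2low libraries were fitted alone (2755 higher, 2487 lower; median -0.02) and 53.8% when only autosomal genes entered the fit (3106 higher, 2672 lower). With other scalings of the same 12 libraries lower calls stayed more numerous, at 2567 higher and 3459 lower with DESeq2 size factors, 2201 and 4091 with library size and 933 and 1099 with macrophage identity genes.

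**Figure D1:**
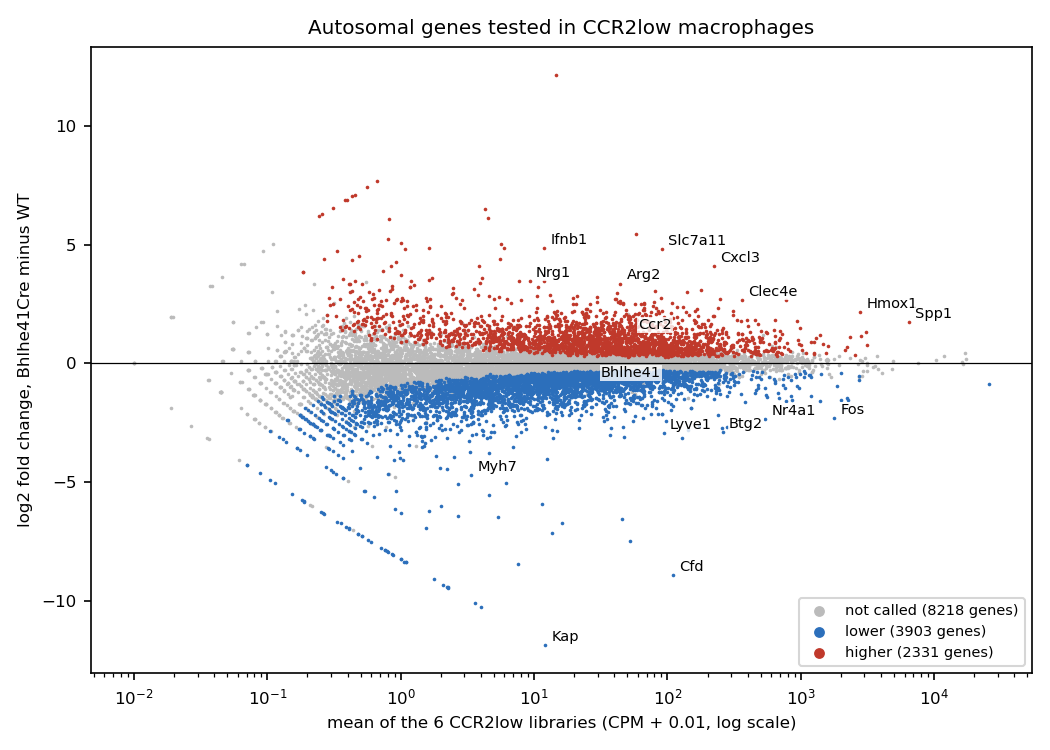
Log2 fold change (Bhlhe41Cre minus WT) against mean CPM of the 6 CCR2low libraries on a log axis, for each of the 14452 autosomal genes tested. Red points are the 2331 genes called higher and blue points the 3903 called lower, and where a genotype has no counts (Kap) the fitted change is no estimate of size.

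Direction also followed base composition. Genes called higher had a median transcript GC content of 44.0% against 53.2% for those called lower and 49.96% for all tested. Genes were cut into 10 bins by GC content. In the bin with the lowest GC content the median change was 0.55 and 47.6% were called higher, and in the bin with the highest it was -0.56 and 45.6% were called lower. Transcript length moved less, with medians between -0.28 and 0.01 over 10 bins of genes. After a correction for GC content and length the calls were 2984 higher and 2762 lower, of which 3999 were the same calls in the same direction and 19 were opposite. Counts of gene lists under that correction, given below, stand beside these 2984 higher and 2762 lower of 14452 tested genes. Values under that correction are given beside each gene below whose change it moved by more than 1.5-fold or whose call it ended.

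**Figure D2:**
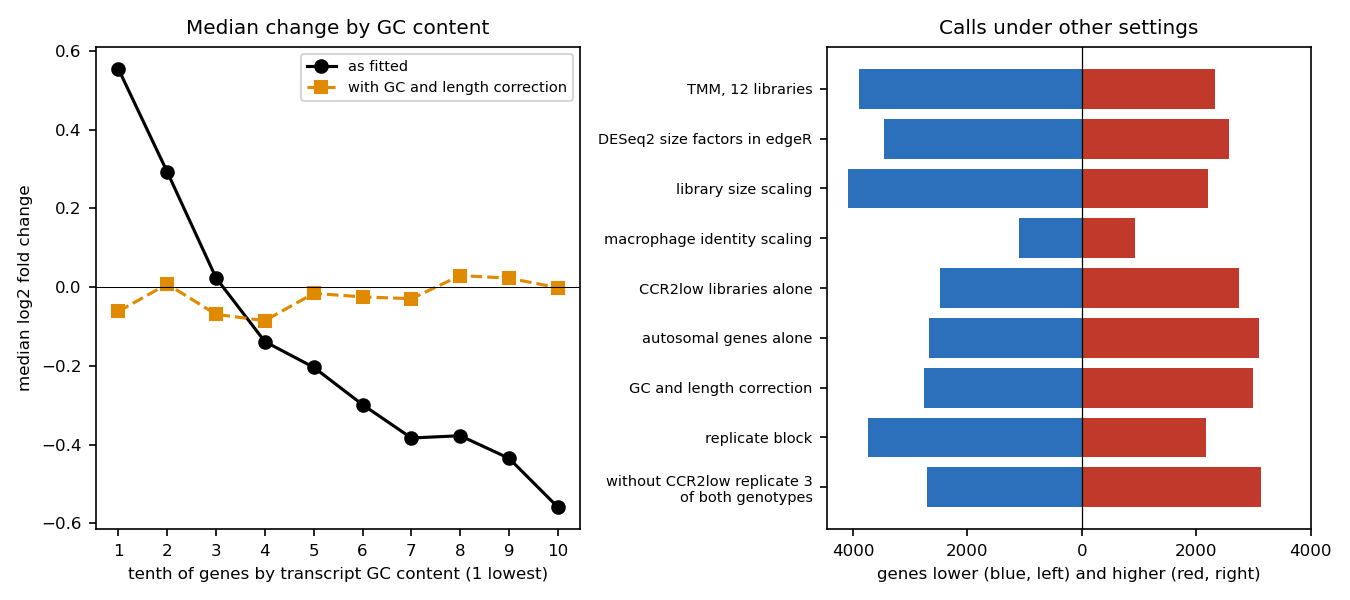
Left, median log2 fold change in 10 bins of genes by transcript GC content, as fitted (black) and after GC and length correction (orange); right, genes called lower (blue, to the left) and higher (red, to the right) under 9 settings. The uncorrected medians fall from 0.55 to -0.56, and 5 of the 9 settings give more lower than higher calls while 4 give more higher calls.

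Bhlhe41 (chr6:145858243-145865558), the locus of the insertion, was at 41.2, 32.3 and 34.2 CPM in WT and 23.9, 26.0 and 13.3 CPM in Bhlhe41Cre. All 3 Bhlhe41Cre libraries lay below all WT libraries, replicate 3 furthest (-0.77 ± 0.24, adjusted p = 0.0221). That call ended in 14 of 26 alternatives, with adjusted p from 0.0054 to 0.367. The single libraries whose absence ended it were WT CCR2low replicate 1, WT CCR2hi replicate 1, Bhlhe41Cre CCR2low replicate 3, Bhlhe41Cre CCR2hi replicate 1, 2 or 3 (adjusted p = 0.0678 to 0.183). Without Bhlhe41Cre CCR2low replicate 3 the change was -0.36. Without any 1 of the CCR2hi libraries just named it was -0.57, a shift that the median of all genes shared (given at the end). A whole-gene count does not tell which allele a transcript came from. Bhlhe40 (chr6:108660629-108666925) was at 449, 409 and 403 CPM in WT and 418, 470.5 and 449 CPM in Bhlhe41Cre, with overlapping groups (0.08 ± 0.16, adjusted p = 0.698).

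Among circadian clock genes, 5 higher and 12 lower of 22 tested were called, with a median change of -0.82. The period genes Per1 and Per2, repressors at the core of the clock, were lower. Per1 (chr11:69095217-69109960) was at 186, 204 and 197 CPM in WT and 60.8, 62.0 and 83.9 CPM in Bhlhe41Cre (-1.51 ± 0.18, adjusted p = 9.08e-05; -0.87 with GC and length correction), with its E-box shown above. Per2 was at 18.5, 21.1 and 30.5 CPM in WT and 7.34, 9.22 and 7.53 CPM in Bhlhe41Cre (-1.54 ± 0.22, adjusted p = 0.0002). Clock, which encodes the activator that the period proteins oppose, was higher (1.52 ± 0.27, adjusted p = 0.000799; 0.70 with GC and length correction), at 13.2, 11.2 and 16.3 CPM in WT and 44.8, 47.8 and 23.9 CPM in Bhlhe41Cre. Nfil3, a repressor of clock output genes, was lower (-1.10 ± 0.20, adjusted p = 0.000853). With the GC and length correction the list stood at 4 higher and 9 lower, and without replicate 3 of both genotypes at 5 higher and 8 lower with a median of -0.37. The labels do not give the time of day at which hearts were taken.

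Immediate early genes, which cells transcribe within minutes of a stimulus, were lower in Bhlhe41Cre as a group, with 2 higher and 18 lower of 25 and a median of -1.38 against -0.19 for all tested genes. Fos (chr12:85473890-85477273), a subunit of the AP-1 transcription factor, was at 3002, 2903 and 2978 CPM in WT and 574, 526 and 676 CPM in Bhlhe41Cre (-2.32 ± 0.31, adjusted p = 0.000134). Its relative Fosb was at 3076, 3438 and 3502 CPM in WT and 815, 819 and 1092 CPM in Bhlhe41Cre (-1.88 ± 0.16, adjusted p = 1.14e-05). Within each genotype these genes were tight, and no library of one genotype reached the range of the other. The antiproliferative gene Btg2 (chr1:134075170-134079120) was at 413, 447 and 520.2 CPM in WT and 55.2, 64.5 and 63.7 CPM in Bhlhe41Cre and was the largest decrease among genes with a mean of at least 200 CPM (-2.91 ± 0.21, adjusted p = 2.84e-06). Nr4a1, an orphan nuclear receptor needed by patrolling monocytes, was at 888, 954 and 878 CPM in WT and 135, 163 and 233 CPM in Bhlhe41Cre (-2.36 ± 0.20, adjusted p = 1e-05). Klf2, a zinc-finger factor that restrains inflammatory activation of myeloid cells, was at 422, 435 and 473 CPM in WT and 62.4, 67.4 and 71.7 CPM in Bhlhe41Cre (-2.72 ± 0.30, adjusted p = 4.52e-05). Also lower were Ier2 (-2.17 ± 0.26, adjusted p = 7.15e-05), Egr2 (-1.43 ± 0.13, adjusted p = 1.79e-05) and, from the list of lineage factors, Klf4 (-1.06 ± 0.15, adjusted p = 0.000197) and Cebpd (-1.81 ± 0.14, adjusted p = 5.62e-06). The lineage factor list itself went both ways, with 5 higher and 9 lower of 24 and a median of -0.38. After GC and length correction it had 4 higher and 6 lower, with a median of 0.06. The 2 higher immediate early genes, chosen for naming after their values were seen, were the AP-1 subunit Fosl1 (2.18 ± 0.46, adjusted p = 0.00244) and the small Maf protein Maff (0.71 ± 0.15, adjusted p = 0.00268). Counts of the immediate early list were 3 higher and 16 lower after GC and length correction.

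**Figure D3:**
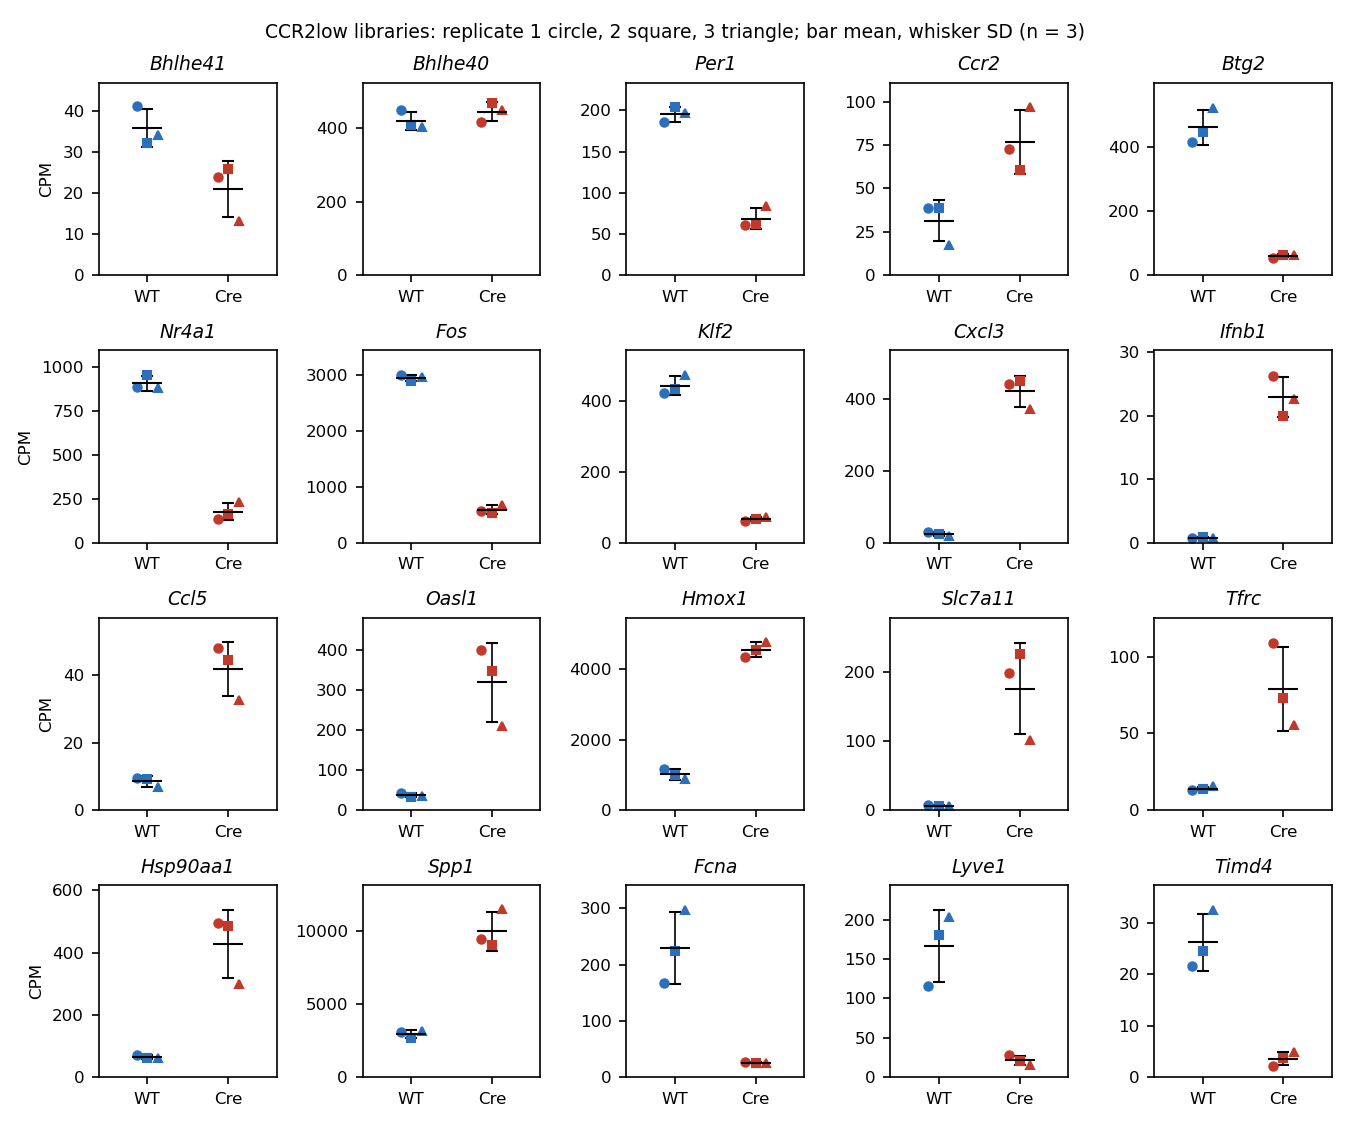
CPM of 20 genes in each CCR2low library, WT in blue and Bhlhe41Cre in red, with 1 panel per gene and its own axis from 0; the bar is the mean and the whisker the SD of 3 libraries. The genotypes overlap in the panel of Bhlhe40 and in no other, and Bhlhe41Cre replicate 3 (triangle) is the Bhlhe41Cre library nearest to WT for, among others, Oasl1, Slc7a11, Tfrc and Hsp90aa1.

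Inflammatory cytokines and chemokines were more often higher than lower in Bhlhe41Cre. Of the list, 12 higher and 2 lower of 27 were called, with a median of 0.69. Cxcl3 (chr5:90786103-90789600), a chemokine that attracts neutrophils, was at 31.1, 24.6 and 18.1 CPM in WT and 442, 451 and 372 CPM in Bhlhe41Cre (4.10 ± 0.27, adjusted p = 2.29e-06). The neighbouring and similar Cxcl2 was at 1636, 1906 and 1774 CPM in WT and 4886, 3998 and 4305 CPM in Bhlhe41Cre (1.31 ± 0.17, adjusted p = 0.000106). Every Bhlhe41Cre library was above every WT library for both. Ccl5, which attracts T cells and monocytes, was at 9.48, 9.30 and 6.73 CPM in WT and 47.9, 44.4 and 32.6 CPM in Bhlhe41Cre (2.29 ± 0.27, adjusted p = 7.02e-05). The interferon-induced chemokine Cxcl10 was at 96.4, 118 and 80.8 CPM in WT and 309, 252 and 287 CPM in Bhlhe41Cre (1.52 ± 0.23, adjusted p = 0.00032). The 2 lower members, chosen after their values were seen, were the gp130 cytokine Osm (-0.94 ± 0.19, adjusted p = 0.0018) and the membrane-bound chemokine Cxcl16 (-0.56 ± 0.15, adjusted p = 0.00872; -0.31 with GC and length correction, adjusted p = 0.0676). The call for Cxcl16 also ended without Bhlhe41Cre CCR2hi replicate 1, 2 or 3 (adjusted p = 0.0716 to 0.0721). Il10, an anti-inflammatory cytokine of the alternative activation list, was higher, at 192, 226 and 191 CPM in WT and 664, 533 and 620.4 CPM in Bhlhe41Cre (1.58 ± 0.20, adjusted p = 0.000104).

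Interferon beta, the type I interferon that alerts cells to nucleic acids of viruses, rose from near the floor. Ifnb1 (chr4:88522025-88522774) was at 0.799, 0.855 and 0.714 CPM in WT and 26.2, 19.9 and 22.6 CPM in Bhlhe41Cre (4.85 ± 0.32, adjusted p = 1.95e-06). The type I interferon list held 10 higher and 3 lower of 28, with a median of -0.05, near that of all genes. Oasl1, an interferon-induced inhibitor of translation, was at 43.0, 33.3 and 36.1 CPM in WT and 401, 347 and 210.2 CPM in Bhlhe41Cre (3.09 ± 0.23, adjusted p = 4.34e-06). Ifit1, which binds foreign RNA, was at 23.6, 23.2 and 23.1 CPM in WT and 148, 113 and 69.5 CPM in Bhlhe41Cre (2.24 ± 0.29, adjusted p = 0.00012). Replicate 3 was the lowest of the Bhlhe41Cre libraries for both genes and still above each WT library. Ifi204 (1.26 ± 0.19, adjusted p = 0.000311) and the RNA sensor Ifih1 (1.86 ± 0.29, adjusted p = 0.000374) were higher too, Ifih1 by 2.54 without replicate 3 of both genotypes. The interferon signalling gene Stat2 (-0.52 ± 0.19, adjusted p = 0.044; -0.13 with GC and length correction, adjusted p = 0.594) and the RNA sensor Ddx58 (-0.57 ± 0.13, adjusted p = 0.0035) were lower, and were chosen for naming after their values were seen. The call for Stat2 ended without WT CCR2low replicate 1, 2 or 3, WT CCR2hi replicate 1 or 2, Bhlhe41Cre CCR2low replicate 2 or 3, Bhlhe41Cre CCR2hi replicate 1, 2 or 3 (adjusted p = 0.0538 to 0.423). That for Ddx58 ended without Bhlhe41Cre CCR2low replicate 3 (adjusted p = 0.0611).

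The promoters of Ifnb1 and Cxcl3, the genes of these lists with the largest increases, are shown with matches to a common form of the site bound by NF-κB in capitals. The form searched was GGGA and TTCC with 2 bases of any kind between them. It was searched on both strands, and the capitals of Cxcl3 hold 2 overlapping matches, 1 on each strand.
Ifnb1 promoter, chr4:88522745-88523044, minus strand: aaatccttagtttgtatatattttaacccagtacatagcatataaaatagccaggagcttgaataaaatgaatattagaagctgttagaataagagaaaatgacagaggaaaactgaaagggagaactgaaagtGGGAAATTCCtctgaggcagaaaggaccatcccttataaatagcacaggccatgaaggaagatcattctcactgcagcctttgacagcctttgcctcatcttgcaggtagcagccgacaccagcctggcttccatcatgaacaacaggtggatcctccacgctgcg
Cxcl3 promoter, chr5:90785851-90786150, plus strand: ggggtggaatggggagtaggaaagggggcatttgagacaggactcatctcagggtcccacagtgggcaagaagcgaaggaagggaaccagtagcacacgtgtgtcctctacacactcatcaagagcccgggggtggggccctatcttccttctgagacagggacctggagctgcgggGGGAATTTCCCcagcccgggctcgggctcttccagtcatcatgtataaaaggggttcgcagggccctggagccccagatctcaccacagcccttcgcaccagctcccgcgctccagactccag
The match began 116 bases before the start site of Ifnb1, and the first of those in Cxcl3 began 73 before. At least 1 match stood in the windows of 1.75% of the genes with one, of 1.86% of those higher and of 1.24% of those lower. Among NF-κB subunits, targets and feedback regulators 10 higher and 3 lower of 19 were called, with a median of 0.49. The mitochondrial superoxide dismutase Sod2 (1.24 ± 0.11, adjusted p = 1.79e-05), the A20-binding inhibitor Tnip1 (1.23 ± 0.13, adjusted p = 3.2e-05) and the subunit Rel (1.12 ± 0.15, adjusted p = 0.00017) were higher. The lower members were Nfkbiz (-1.35 ± 0.15, adjusted p = 4.52e-05), a nuclear co-regulator, and, chosen after their values were seen, the inhibitors Socs3 (-0.50 ± 0.16, adjusted p = 0.0216; -0.01 with GC and length correction, adjusted p = 0.965) and Nfkbia (-0.32 ± 0.11, adjusted p = 0.0389; -0.03 with GC and length correction, adjusted p = 0.871). The call of Socs3 ended without WT CCR2low replicate 2 or 3, Bhlhe41Cre CCR2low replicate 3, Bhlhe41Cre CCR2hi replicate 1, 2 or 3 (adjusted p = 0.0559 to 0.22). That of Nfkbia ended without WT CCR2low replicate 1, 2 or 3, WT CCR2hi replicate 1, Bhlhe41Cre CCR2low replicate 1, 2 or 3, Bhlhe41Cre CCR2hi replicate 1, 2 or 3 (adjusted p = 0.0592 to 0.43).

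Innate receptors showed 7 higher and 4 lower of 27, beside 16.1% higher and 27% lower of all tested genes. Clec4e, a lectin that senses dead cells and mycobacterial glycolipid, was at 87.9, 107 and 104 CPM in WT and 759, 683 and 436 CPM in Bhlhe41Cre (2.65 ± 0.35, adjusted p = 0.000137). Its partner Clec4d was at 206, 184 and 220.3 CPM in WT and 465, 474 and 493 CPM in Bhlhe41Cre (1.23 ± 0.16, adjusted p = 0.000141). Both were higher in every Bhlhe41Cre library. The scavenger receptor Msr1 (1.08 ± 0.19, adjusted p = 0.000742; 0.41 with GC and length correction, adjusted p = 0.0847) was higher as fitted. Of the genes for antigen presentation on MHC class II, 2 higher and 1 lower of 14 were called, the higher ones near the share of all genes. Among those called were the co-stimulator Cd86 (1.84 ± 0.21, adjusted p = 5.86e-05) and the class II transactivator Ciita (-2.01 ± 0.49, adjusted p = 0.00526).

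Targets of NRF2, the master regulator of the antioxidant response, were mostly higher where called (9 higher and 1 lower of 18, median 0.31). Slc7a11 (chr3:49892526-50443614), the cystine importer that feeds glutathione synthesis, was at 7.24, 5.93 and 5.76 CPM in WT and 199, 227 and 102 CPM in Bhlhe41Cre (4.80 ± 0.58, adjusted p = 0.000106; 3.95 with GC and length correction). Osgin1 (1.70 ± 0.14, adjusted p = 9.68e-06) and the glutathione synthesis subunit Gclm (1.14 ± 0.17, adjusted p = 0.000249) were higher. Gsta3 (-2.62 ± 0.34, adjusted p = 0.000114), a glutathione transferase, was the 1 lower member. After GC and length correction the list had 12 higher and 1 lower.

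Heme and iron genes had 6 higher and 1 lower of 18 (median 0.38). Hmox1 (chr8:75093621-75100589), the enzyme that breaks down heme and a target of NRF2, was at 1177, 1008 and 872 CPM in WT and 4338, 4556 and 4765 CPM in Bhlhe41Cre (2.16 ± 0.28, adjusted p = 0.000115). Tfrc, the transferrin receptor that brings in iron, was at 12.9, 13.7 and 15.4 CPM in WT and 109, 73.0 and 55.4 CPM in Bhlhe41Cre (2.50 ± 0.26, adjusted p = 3.95e-05; 1.80 with GC and length correction). Spic, a transcription factor of heme-handling macrophages, was at 4.58, 3.42 and 3.21 CPM in WT and 20.4, 15.2 and 15.1 CPM in Bhlhe41Cre (2.18 ± 0.27, adjusted p = 9.04e-05). The genotypes did not overlap for these 3 genes; for Tfrc the Bhlhe41Cre libraries were spread more widely than the gap between genotypes. The iron transporter Slc11a2 (1.32 ± 0.23, adjusted p = 0.000735) was higher, and Trf (-0.93 ± 0.22, adjusted p = 0.00425), which encodes transferrin, was the 1 lower member, chosen after its values were seen.

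Chaperones and unfolded protein genes stood at 11 higher and 3 lower of 22 (median 0.39), and at 15 higher and 0 lower after GC and length correction. Hsp90aa1, the inducible cytosolic chaperone, was at 72.2, 62.1 and 62.2 CPM in WT and 497, 485 and 301 CPM in Bhlhe41Cre (2.71 ± 0.25, adjusted p = 2.11e-05). Its relative in the endoplasmic reticulum, Hsp90b1, was at 286, 264 and 293 CPM in WT and 697, 806 and 675 CPM in Bhlhe41Cre (1.37 ± 0.16, adjusted p = 7.15e-05). Hspa5, the main chaperone of that compartment, was named after its values were seen (1.19 ± 0.16, adjusted p = 0.000139). The co-chaperones Dnajb9 (1.31 ± 0.16, adjusted p = 8.09e-05) and Dnaja1 (1.29 ± 0.17, adjusted p = 0.00013; 0.70 with GC and length correction) were higher as well. The integrated stress response list had 4 higher and 4 lower of 21, beside 16.1% higher and 27% lower of all tested genes. Its members included higher Atf4 (0.96), the central transcription factor of that response, Ppp1r15a (0.65), a phosphatase subunit that reverses it, and Slc3a2 (0.56), and lower Stc2 (-2.01). That list moved to 10 higher and 3 lower with the correction.

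Resident cardiac macrophage genes were lower in part, with 3 higher and 9 lower of 22 and a median of -0.60. Fcna (chr2:25624666-25628030), a ficolin lectin, was at 168, 225 and 297 CPM in WT and 27.0, 26.0 and 24.8 CPM in Bhlhe41Cre (-3.14 ± 0.26, adjusted p = 9.68e-06). Lyve1 (chr7:110850607-110863239), the hyaluronan receptor, was at 116, 181 and 203 CPM in WT and 27.8, 21.3 and 15.3 CPM in Bhlhe41Cre (-2.95 ± 0.33, adjusted p = 5.58e-05). Timd4, a receptor for phosphatidylserine on dying cells, was at 21.6, 24.6 and 32.4 CPM in WT and 2.30, 3.76 and 4.88 CPM in Bhlhe41Cre (-2.85 ± 0.35, adjusted p = 8.87e-05). These 3 had their highest WT value in replicate 3 and no overlap between genotypes. Ltc4s (-2.26 ± 0.27, adjusted p = 7.15e-05), which makes leukotriene C4, and the lectin Mgl2 (-1.80 ± 0.36, adjusted p = 0.00158) were lower too. The 3 higher members, chosen after their values were seen, were the platelet chemokine gene Pf4 (1.40 ± 0.27, adjusted p = 0.00137), the prostaglandin D synthase Hpgds (1.02 ± 0.24, adjusted p = 0.00428) and the mannose receptor Mrc1 (0.80 ± 0.21, adjusted p = 0.00731; 0.44 with GC and length correction, adjusted p = 0.0659).

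Genes of macrophages from the pleural, pericardial and peritoneal cavities had 0 higher and 9 lower of 18 (median -1.10). Gata6, their lineage factor, was at 15.8, 14.1 and 14.8 CPM in WT and 4.66, 8.67 and 5.17 CPM in Bhlhe41Cre (-1.27 ± 0.21, adjusted p = 0.000482). Ltbp1 (-1.62 ± 0.28, adjusted p = 0.000575) and Wnt2 (-2.91 ± 0.45, adjusted p = 0.00032) were lower, Ltbp1 by -1.02 without replicate 3 of both genotypes. Marco, a scavenger receptor, was at 89.9, 204 and 449.6 CPM in WT and 48.6, 33.5 and 25.0 CPM in Bhlhe41Cre (-2.79 ± 0.50, adjusted p = 0.00103), with more in WT replicate 3 than in the other WT libraries and a change of -2.04 without it. Without replicate 3 of both genotypes the list had 1 higher and 6 lower, with a median of -0.22, close to that of all genes. In the fibroblast-rich CCR2hi libraries Gata6 (-0.96), Ltbp1 (-0.84) and Wnt2 (-1.31) were also called lower, and Marco (2.13) was not called. Summed fibroblast and mesothelial markers moved the same way as the list in CCR2low, and their part in this result was not tested.

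Genes of lipid-associated macrophages had 7 higher and 1 lower of 23 (median 0.13). Spp1 (chr5:104435118-104441050), the secreted matrix protein osteopontin, was at 3057, 2659 and 3129.5 CPM in WT and 9391, 8996 and 11459 CPM in Bhlhe41Cre (1.75 ± 0.23, adjusted p = 0.000136). The fatty acid receptor Cd36 (1.34 ± 0.26, adjusted p = 0.00151; 0.71 with GC and length correction), the lipoprotein lipase Lpl (1.06 ± 0.22, adjusted p = 0.00195) and the lysosomal protease Ctsl (0.77 ± 0.13, adjusted p = 0.000472) were higher; Cd36 changed by 2.03 without replicate 3 of both genotypes. Apoe, the lipid carrier, was at 36012, 32131 and 32031 CPM in WT and 18372, 15000.0 and 21765 CPM in Bhlhe41Cre (-0.86 ± 0.28, adjusted p = 0.0229; -0.37 with GC and length correction, adjusted p = 0.216). Its call ended without WT CCR2low replicate 1, Bhlhe41Cre CCR2low replicate 1 or 2, Bhlhe41Cre CCR2hi replicate 1, 2 or 3 (adjusted p = 0.0643 to 0.0851). Monocyte genes went both ways (7 higher and 5 lower of 20, median -0.07), beside 16.1% higher and 27% lower of all tested genes. The lower calls were thus near the share of all genes. Coagulation factor F10 (1.33 ± 0.19, adjusted p = 0.000175) and the chitinase-like Chil3 (1.82 ± 0.27, adjusted p = 0.000285) were higher, and Nr4a1, given above, was among the lower members. Irf8, a factor needed for monocyte and dendritic cell development, was lower, at 247, 239 and 190.1 CPM in WT and 85.1, 80.7 and 110.2 CPM in Bhlhe41Cre (-1.29 ± 0.17, adjusted p = 0.000113).

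Genes for the uptake of dying cells and for lipid efflux were more often lower than higher (5 higher and 13 lower of 29, median -0.41). After GC and length correction the counts were 5 higher and 6 lower, near the shares of all genes (2984 higher and 2762 lower of 14452). Mfge8, a bridge between phosphatidylserine and integrins, was at 439.6, 367 and 418 CPM in WT and 158, 154 and 155 CPM in Bhlhe41Cre (-1.39 ± 0.13, adjusted p = 1.87e-05). The receptor kinase Axl (-1.11 ± 0.18, adjusted p = 0.000463) and its ligand Gas6 (-1.02 ± 0.15, adjusted p = 0.000267) were lower. In the complement list 0 higher and 6 lower of 16 were called (median -0.55), among them Serping1 (-1.63 ± 0.23, adjusted p = 0.0002), the inhibitor of C1, the C1 proteases C1ra (-0.99 ± 0.15, adjusted p = 0.000343) and C1s1 (-1.66 ± 0.27, adjusted p = 0.000392), and C3 (-1.24 ± 0.22, adjusted p = 0.000773). The summed fibroblast markers moved the same way, at 6044 to 10640.0 CPM in WT and 2816 to 6246 CPM in Bhlhe41Cre, and their part in the result was not tested.

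**Figure D4:**
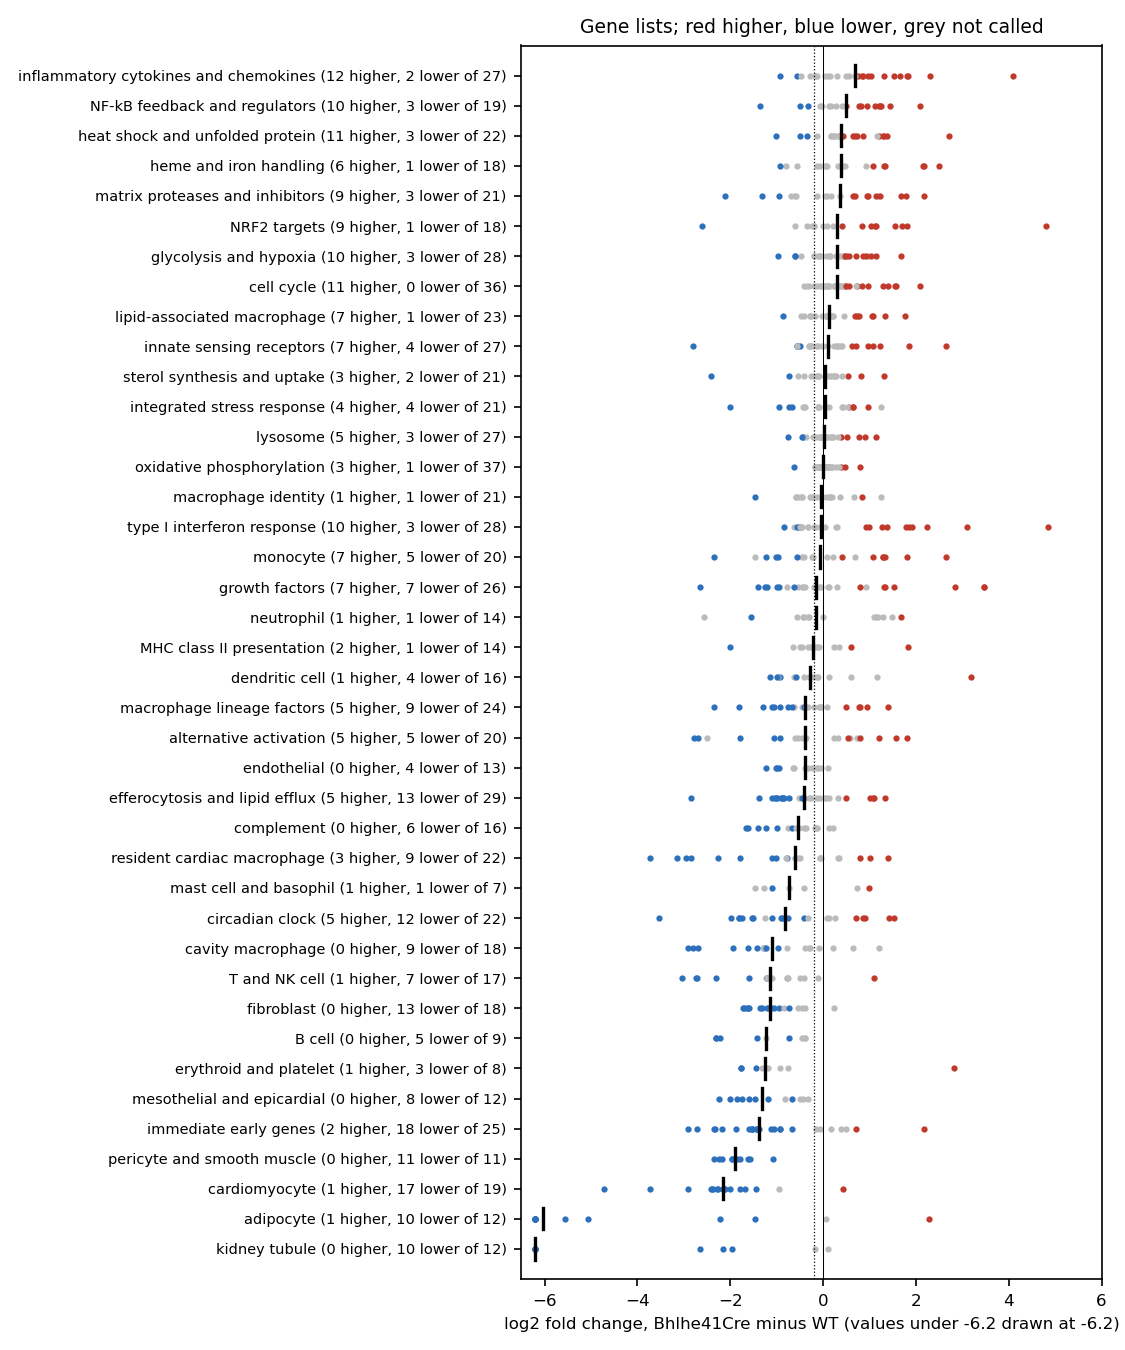
Log2 fold change (Bhlhe41Cre minus WT) of each tested autosomal member of 40 gene lists, sorted by the list median (black bar), with red for genes called higher, blue for lower and grey for not called; the dotted line is the median of all tested genes, -0.19. Inflammatory cytokines and chemokines have the highest median (0.69), and immediate early genes lie among the lists of other cell types at the low end.

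Of the growth factors 7 higher and 7 lower of 26 were called, beside 16.1% higher and 27% lower of all tested genes. Nrg1, an epidermal growth factor-like ligand that acts on heart muscle cells, was at 0.692, 2.41 and 1.48 CPM in WT and 22.8, 12.2 and 15.9 CPM in Bhlhe41Cre (3.46 ± 0.35, adjusted p = 3.12e-05). Inhba, which encodes a subunit of activin A, was at 2.29, 1.96 and 1.63 CPM in WT and 23.9, 27.9 and 13.2 CPM in Bhlhe41Cre (3.46 ± 0.42, adjusted p = 8.43e-05; 2.81 with GC and length correction). The highest WT library for either gene was at 2.41 CPM. Ctgf, a matricellular protein of fibroblasts, was lower, at 323, 316 and 251 CPM in WT and 34.9, 72.0 and 34.0 CPM in Bhlhe41Cre (-2.66 ± 0.27, adjusted p = 3.16e-05), as was Tgfb3 (-1.26 ± 0.16, adjusted p = 0.00012). Gdf15, a stress-induced cytokine from the TGF-β superfamily, was at 696, 533 and 609 CPM in WT and 469, 451 and 478 CPM in Bhlhe41Cre. The groups did not overlap, but its change of -0.40 ± 0.17, adjusted p = 0.0796, did not pass the test and turned to 0.18 (adjusted p = 0.401) after GC and length correction.

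Matrix proteases and their inhibitors had 9 higher and 3 lower of 21 (median 0.37). The collagenase Mmp13 was at 9.53, 7.64 and 7.75 CPM in WT and 42.0, 38.9 and 31.0 CPM in Bhlhe41Cre (2.17 ± 0.22, adjusted p = 2.91e-05). Mmp19 (1.78 ± 0.21, adjusted p = 6.78e-05) was higher too, as was Mmp8 (1.68 ± 0.26, adjusted p = 0.00034), a neutrophil collagenase and 1 of the neutrophil markers. The gelatinase Mmp2 (-2.12 ± 0.29, adjusted p = 0.00015) and the inhibitor Timp2 (-0.95 ± 0.12, adjusted p = 0.00013) were lower. Elastin (Eln), a matrix protein, was at 600.1, 461 and 384 CPM in WT and 59.5, 109 and 57.2 CPM in Bhlhe41Cre (-2.68 ± 0.30, adjusted p = 5.86e-05). Bhlhe41Cre replicate 2 held the most of it among the Bhlhe41Cre libraries and WT replicate 1 the most in WT, as for the summed fibroblast markers (10640.0, 9898 and 6044 CPM in WT and 2844, 6246 and 2816 CPM in Bhlhe41Cre), whose part in this result was not tested.

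Glycolysis and hypoxia genes had 10 higher and 3 lower of 28, and 17 higher and 1 lower after GC and length correction. Hif1a (1.69 ± 0.21, adjusted p = 9.12e-05), the oxygen-regulated transcription factor, its target Ndrg1 (0.85 ± 0.14, adjusted p = 0.00039), the oxidase Ero1l (1.04 ± 0.16, adjusted p = 0.000347) and the glucose transporter Slc2a1 (1.13 ± 0.22, adjusted p = 0.00154) were higher. Of the oxidative phosphorylation genes 3 higher and 1 lower of 37 were called, of sterol genes 3 higher and 2 lower of 21 and of lysosomal genes 5 higher and 3 lower of 27. Of all tested genes 16.1% were called higher and 27% lower. After GC and length correction the counts of these lists were 10 higher and 3 lower, 5 higher and 2 lower and 10 higher and 1 lower. Cell cycle genes had 11 higher and 0 lower of 36 (median 0.29), beside 16.1% of all tested genes called higher. Mki67, a marker of proliferating cells, was at 18.7, 23.0 and 23.9 CPM in WT and 103, 107 and 67.8 CPM in Bhlhe41Cre (2.08 ± 0.24, adjusted p = 5.88e-05). The mitotic genes Bub1 (1.56 ± 0.28, adjusted p = 0.000742), Cenpe (1.40 ± 0.23, adjusted p = 0.00047) and Nusap1 (1.28 ± 0.19, adjusted p = 0.000217) were higher.

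Many markers of other cells of the heart were lower in Bhlhe41Cre. Pericyte and smooth muscle markers fell in 11 of 11, for example Kcnj8 (-2.36 ± 0.23, adjusted p = 2.49e-05), Notch3 (-2.18 ± 0.24, adjusted p = 4.52e-05; -1.49 with GC and length correction), Tagln (-1.86 ± 0.20, adjusted p = 4.39e-05) and Des (-1.96 ± 0.14, adjusted p = 2.72e-06). Their sum was at 607, 550.0 and 582 CPM in WT and 143, 237 and 139 CPM in Bhlhe41Cre. Fibroblast markers had 0 higher and 13 lower of 18, with lower Loxl1 (-1.70), Tcf21 (-1.64), Fbln1 (-1.73) and Mgp (-1.31). Bhlhe41Cre replicate 2 held more of them than replicates 1 and 3. Heart muscle markers had 1 higher and 17 lower of 19, among them Myh7 (-4.72 ± 0.58, adjusted p = 9.13e-05), Myh6 (-2.41 ± 0.25, adjusted p = 3.54e-05; -1.82 with GC and length correction), Mb (-2.40 ± 0.27, adjusted p = 5.98e-05) and Tnnt2 (-1.79 ± 0.16, adjusted p = 1.79e-05). The 1 higher gene, Atp2a2 (0.42 ± 0.12, adjusted p = 0.0154), was chosen after its values were seen, and its call ended without WT CCR2low replicate 1, Bhlhe41Cre CCR2low replicate 2 (adjusted p = 0.0556 to 0.0728). Mesothelial markers had 0 higher and 8 lower of 12, with Upk3b (-2.25) and Msln (-2.01). Endothelial markers had 0 higher and 4 lower of 13, near the 27% of all tested genes called lower, with Vwf (-1.22; -0.62 with GC and length correction), and 1 higher and 0 lower without replicate 3 of both genotypes (Vwf -0.64, adjusted p = 0.0623).

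Blood cell markers were at low levels in both genotypes. Their counts of calls stand beside 16.1% higher and 27% lower of all tested genes. Neutrophil markers summed to 214 to 284 CPM in WT and 335 to 389.6 CPM in Bhlhe41Cre (1 higher and 1 lower of 14). T and NK cell markers summed to 73.3 to 87.1 CPM in WT and 79.7 to 113 CPM in Bhlhe41Cre (1 higher and 7 lower of 17). The 1 higher member, a cytokine receptor gene, was alone at 29.9, 23.2 and 48.4 CPM in WT. In Bhlhe41Cre it was at 82.1, 79.5 and 54.6 CPM, so the T and NK cell sum does not follow the 7 lower members. Mast cell and basophil markers summed to 21.1 to 27.9 CPM in WT and 25.9 to 40.5 CPM in Bhlhe41Cre (1 higher and 1 lower of 7). Erythroid and platelet markers summed to 224 to 544 CPM in WT and 63.4 to 427 CPM in Bhlhe41Cre (1 higher, Ppbp (2.81), and 3 lower of 8). B cell markers summed to 146 to 221 CPM in WT and 61.4 to 91.1 CPM in Bhlhe41Cre (0 higher and 5 lower of 9, with lower Ighm (-2.31)). B cell genes called lower numbered 1 with the CCR2low libraries alone, 1 without replicate 3 of both genotypes and 0 with scaling on macrophage identity genes. Those of T and NK cells numbered 4 in each of these settings. Scaling on macrophage identity genes, which covered all 12 libraries, also cut lower calls over all tested genes from 3903 to 1099. The 0 under it is therefore not particular to B cell genes. Dendritic cell markers summed to 373 to 408 CPM in WT and 240.0 to 312 CPM in Bhlhe41Cre. Of these, 1 higher and 4 lower of 16 were called, beside 16.1% higher and 27% lower of all tested genes. The higher dendritic cell marker was the chemokine receptor Xcr1, at 0.373, 0.503 and 0.561 CPM in WT and 4.02, 6.27 and 3.00 CPM in Bhlhe41Cre (3.19 ± 0.38, adjusted p = 7.07e-05). At these low levels Xcr1 went against the list sum, which was lower in every Bhlhe41Cre library. Much of that lower sum lay in 1 member, at 148, 158 and 164 CPM in WT and 74.8, 65.3 and 97.4 CPM in Bhlhe41Cre. The sum therefore does not speak for the dendritic cell list as a whole. The part of other cells in the changes of the macrophage lists was not tested.

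**Figure D5:**
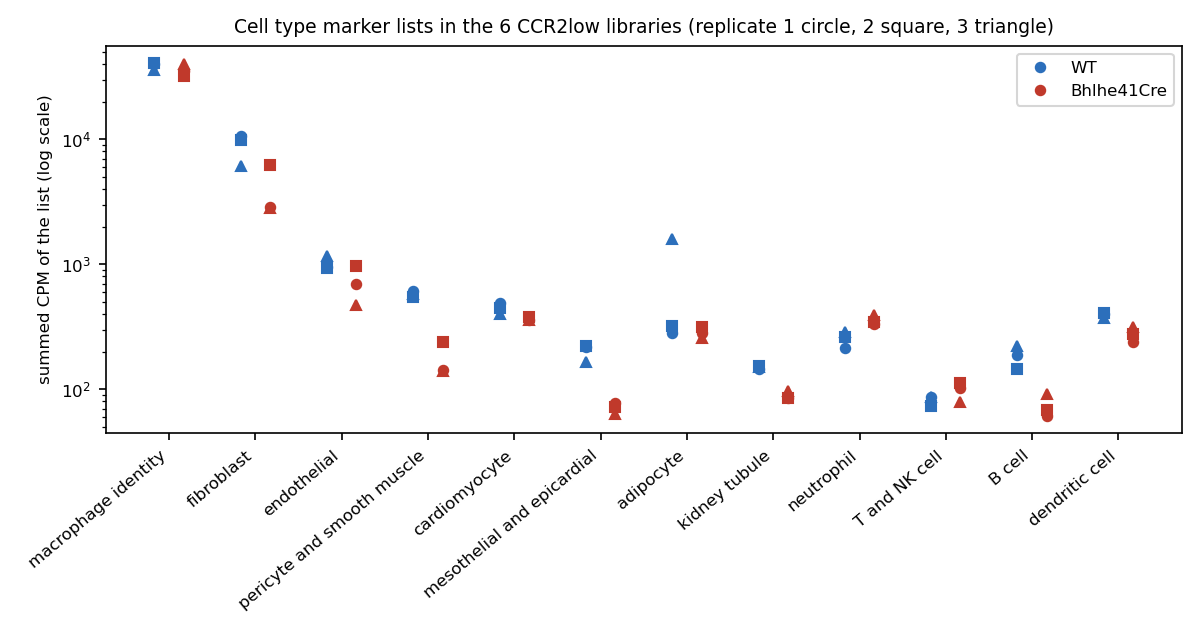
Summed CPM of the tested members of 12 cell type marker lists in each of the 6 CCR2low libraries, on a log axis, WT in blue and Bhlhe41Cre in red. Sums for pericytes and smooth muscle, cardiomyocytes, mesothelium, kidney tubule, B cells and dendritic cells are lower in every Bhlhe41Cre library, neutrophil sums are higher in each, and WT replicate 3 alone has an adipocyte sum of 1584 CPM.

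The largest decreases were in transcripts of fat and kidney. Kap (kidney androgen regulated protein, chr6:133849851-133853762) was at 27.0, 24.5 and 21.1 CPM in WT and 0, 0 and 0 CPM in Bhlhe41Cre. In the CCR2hi libraries the fit had an infinite standard error for Kap, so that gate gives no comparison of genotypes for Kap. Its WT level was at least 145-fold higher than the floor of 3 counts per Bhlhe41Cre library, and those of the renal transporter Slc34a1 and of uromodulin (Umod), with 0 counts in Bhlhe41Cre, were at least 24.9-fold and 27.1-fold higher. Kidney tubule markers had 0 higher and 10 lower of 12, of which 6 had no count in any Bhlhe41Cre library; with these at their bounds the median was at most -2.70. Fat transcripts were highest in WT replicate 3. Summed adipocyte markers were at 283, 318 and 1584 CPM in WT and 283, 316 and 258 CPM in Bhlhe41Cre. In this sum WT replicates 1 and 2 were thus near the Bhlhe41Cre libraries, although most markers of the list were called lower. The fat cell protease Cfd (adipsin) was at 14.1, 25.5 and 614 CPM in WT and 0.803, 0.327 and 0.176 CPM in Bhlhe41Cre. Its fitted change was -8.92 ± 1.64, adjusted p = 0.00159, and -5.47 without WT replicate 3. Adipocyte markers had 1 higher and 10 lower of 12, with Adipoq (-6.73 ± 1.31, adjusted p = 0.00186), Plin1 (-6.49 ± 1.03, adjusted p = 0.000584), Cidec (-7.14 ± 1.45, adjusted p = 0.00231) and Car3 (-7.49 ± 0.99, adjusted p = 0.000193), which came to -4.10, -5.40, -4.24 and -5.89 without that library. Leaving out 1 Bhlhe41Cre library (replicate 1 for Cfd, Cidec and Adipoq, replicate 3 for Plin1) also moved these fitted sizes by over 1.5-fold, to -9.70, -8.74, -7.75 and -5.83, and no call ended. Pck1, on both the fat and the kidney list, had 887 counts in WT and 2 in Bhlhe41Cre, a ratio of 411 with an exact 95% counting interval of 113 to 3400.3.

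The metabolic genes Cyp2e1 (-6.58 ± 1.41, adjusted p = 0.00373), Ces1d (-5.04 ± 1.24, adjusted p = 0.00625) and Cdo1 (-4.05 ± 0.78, adjusted p = 0.00155) were also among the 12 largest decreases and came to -3.37, -2.45 and -2.21 without WT replicate 3 (Ces1d -4.44 without Bhlhe41Cre replicate 1). Immunoglobulin Ighg2c (-3.53 ± 1.27, adjusted p = 0.0425; -3.30 with GC and length correction, adjusted p = 0.0763) lost its call without WT CCR2low replicate 1 or 3, Bhlhe41Cre CCR2low replicate 1, 2 or 3, Bhlhe41Cre CCR2hi replicate 1, 2 or 3 (adjusted p = 0.0563 to 0.184), and came to -2.22 without WT replicate 3. The predicted gene Gm20431 was at 27.6, 19.8 and 20.7 CPM in WT and 0, 1.09 and 0 CPM in Bhlhe41Cre. Among the 12 largest increases at a mean of at least 5 CPM were 5 predicted or copied genes, Gm20388, Tpm3-rs7 (5.45), Gm20412 (5.03), Gm10020 (4.85) and Gm17494 (4.39). Gm20388 was at 0, 0 and 0 CPM in WT and 34.8, 0.273 and 52.3 CPM in Bhlhe41Cre, nearly all of it in replicates 1 and 3, and its call ended without replicate 3 of both genotypes (adjusted p = 0.0594). The fitted sizes for Gm20388, and for Gm20431 and Gm20412 when 1 library was left out, rest on libraries at 0 and are no estimate. Gm20412 was at 0 in WT replicates 2 and 3, and Gm10020 changed by 5.58 without WT replicate 2. Reads of such genes, and of close paralogs such as Cxcl2 and Cxcl3, can be divided uncertainly between copies.

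Arg2, the mitochondrial arginase, was at 7.77, 8.90 and 6.78 CPM in WT and 85.7, 74.1 and 82.3 CPM in Bhlhe41Cre (3.37 ± 0.22, adjusted p = 1.95e-06). B3gnt5, which starts the lacto series of glycolipids, was at 1.54, 1.16 and 1.12 CPM in WT and 17.03, 13.3 and 11.9 CPM in Bhlhe41Cre (3.46 ± 0.24, adjusted p = 2.84e-06; 2.67 with GC and length correction). No library of one genotype reached the other for either gene. Among genes with a mean of at least 200 CPM the largest increases beside Cxcl3, Hsp90aa1, Clec4e and Hmox1 were in the inhibitory receptor gene Lilr4b (2.66 ± 0.42, adjusted p = 0.000373), the translation factor Eif5 (2.32 ± 0.31, adjusted p = 0.000137), the small GTPase Rab8b (2.19 ± 0.25, adjusted p = 5.98e-05; 1.58 with GC and length correction) and Fnip2 (2.03 ± 0.29, adjusted p = 0.000197), a folliculin partner. Bhlhe41Cre replicate 3 was nearest to WT for these 4, and Lilr4b, Eif5 and Fnip2 came to 3.49, 3.00 and 2.70 without replicate 3 of both genotypes. Cxcr4, the receptor of the retention chemokine CXCL12, was lower, at 586, 556 and 594 CPM in WT and 183, 203 and 168 CPM in Bhlhe41Cre (-1.65 ± 0.23, adjusted p = 0.000188).

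The genotype difference was itself unlike in CCR2low and CCR2hi libraries for 12.6% of the tested autosomal genes (interaction of gate and genotype, edgeR's quasi-likelihood test, adjusted p under 0.05). In the CCR2hi libraries 32.1% of those genes were called between genotypes. The interaction test treated CCR2low and CCR2hi libraries as independent, and whether same-numbered ones share hearts was not tested.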

How the data were processed

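RNA-seq was measured in 12 libraries of cells from infarcted hearts that the labels call macrophages, 3 for each of 4 groups of genotype (WT, Bhlhe41Cre) and gate (CCR2low, CCR2hi). The authors deposited expected counts per gene, held as whole numbers, and TPM per gene; per the submitters' processing notes the tools were CASAVA 1.8, STAR 2.4.0j and RSEM with build mm10, and strandedness is not given in the sources used here, so reads of overlapping or antisense genes cannot be told apart. Columns named KD were taken as Bhlhe41Cre by gate and replicate number, since KD is the 1 genotype name in the table besides WT; no label states this.

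Counts were fitted with edgeR 4.0.16 (R 4.3.3; TMM scaling, filterByExpr, robust quasi-likelihood fit of 4 group means on 12 libraries, 8 residual degrees of freedom), with Benjamini-Hochberg adjustment over all 14964 genes tested and a threshold of 0.05. Autosomal genes (chromosomes 1 to 19) were then counted. CPM were computed with the TMM library sizes. Gene positions, GC content and length came from GENCODE M21, which held 99.7% of the identifiers.

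The text names Bhlhe41, Bhlhe40, Ccr2 and Gdf15; among called genes whose ranges do not overlap, the 12 largest changes per direction at a mean of at least 5 CPM and the 8 largest at 200 CPM; and up to 4 members of each gene list by smallest p, of which some are left out. Exceptions are marked. The members and the gene lists were chosen with earlier results of these data known, and the lists got no test of their own. Floors (3 counts per library) and 95% exact intervals cover counting error only. Alternatives included DESeq2 1.42.0, limma 3.58.1 (voom, and log2(TPM + 1)), other scalings and filters, a GC and length correction (loess, span 0.4), and each library left out; leaving out replicate 3 of both genotypes was chosen after seeing the data. The model code was tested on simulated data.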

Additional observations from a re-analysis of the deposited data

Results flagged for a closer look

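For 62 of the 154 genes named, the genotype difference in CCR2low libraries was unlike that in CCR2hi libraries by the test of the difference itself (interaction, edgeR's quasi-likelihood test, adjusted p under 0.05). Most of the genes named were chosen for their change in CCR2low, which is part of this difference, so the number is not to be read against the 12.6% of all tested autosomal genes. Values in brackets are the difference between gates on the log2 scale, followed by the change in CCR2low and the change in CCR2hi. Macrophage identity genes summed to 32166 to 40567 CPM in the CCR2low libraries and to 2519 to 10510 CPM in the CCR2hi libraries, where fibroblast markers were at 41966 to 93206 CPM, and the part of this in the differences was not tested.

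The fitted changes had opposite signs in the 2 gates for 21 genes, of which 3 (Irf8, Nfkbia and Osm) were called in both gates; for 16 the CCR2hi change did not pass the test and for 2 (Bhlhe40 and Gdf15) the CCR2low change did not. These included Bhlhe40 (0.76: 0.08 and -0.67), Ces1d (-5.89: -5.04 and 0.84), Clock (1.53: 1.52 and -0.01), Cxcl16 (-0.86: -0.56 and 0.30), Cxcr4 (-2.06: -1.65 and 0.42), Cyp2e1 (-9.41: -6.58 and 2.83), Fcna (-3.29: -3.14 and 0.15) and Gdf15 (-1.88: -0.40 and 1.49). Others were Irf8 (-1.77: -1.29 and 0.48), Ltc4s (-2.44: -2.26 and 0.18), Lyve1 (-3.39: -2.95 and 0.44), Marco (-4.92: -2.79 and 2.13), Mb (-2.49: -2.40 and 0.09), Mki67 (2.14: 2.08 and -0.05), Msln (-2.13: -2.01 and 0.12) and Myh7 (-5.50: -4.72 and 0.77). The rest were Nfkbia (-0.95: -0.32 and 0.63), Osm (-2.03: -0.94 and 1.10), Timd4 (-2.99: -2.85 and 0.14), Tnnt2 (-2.04: -1.79 and 0.25) and Vwf (-1.50: -1.22 and 0.27).

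The signs were the same and the change was larger in CCR2low for the next group. It held B3gnt5 (1.78: 3.46 and 1.69), Btg2 (-1.56: -2.91 and -1.35), C1ra (-0.72: -0.99 and -0.27), C3 (-1.17: -1.24 and -0.07), Cdo1 (-3.56: -4.05 and -0.49), Cebpd (-0.89: -1.81 and -0.93), Des (-1.69: -1.96 and -0.27) and Dnaja1 (0.92: 1.29 and 0.37). It also held Fosb (-0.79: -1.88 and -1.09), Gsta3 (-2.33: -2.62 and -0.29), Hif1a (1.41: 1.69 and 0.27), Hsp90aa1 (1.39: 2.71 and 1.32), Hsp90b1 (1.13: 1.37 and 0.24), Hspa5 (0.81: 1.19 and 0.38), Ifih1 (1.32: 1.86 and 0.54) and Ifnb1 (1.77: 4.85 and 3.08). Further members were Inhba (2.15: 3.46 and 1.31), Kcnj8 (-1.57: -2.36 and -0.79), Mfge8 (-0.81: -1.39 and -0.58), Myh6 (-2.09: -2.41 and -0.32), Nfkbiz (-0.80: -1.35 and -0.55), Notch3 (-1.58: -2.18 and -0.61), Nr4a1 (-1.60: -2.36 and -0.75) and Nrg1 (3.12: 3.46 and 0.34). The last were Per2 (-1.45: -1.54 and -0.09), Tagln (-1.69: -1.86 and -0.18), Tcf21 (-1.09: -1.64 and -0.56) and Upk3b (-1.56: -2.25 and -0.69).

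The signs were the same and the change was larger in CCR2hi for the remaining genes. They were Arg2 (-1.50: 3.37 and 4.87), Bhlhe41 (1.46: -0.77 and -2.23), Chil3 (-1.78: 1.82 and 3.60), Clec4d (-2.73: 1.23 and 3.96), Cxcl2 (-1.48: 1.31 and 2.79), F10 (-3.06: 1.33 and 4.39), Hmox1 (-1.48: 2.16 and 3.64) and Il10 (-1.88: 1.58 and 3.46). The others were Mmp8 (-2.25: 1.68 and 3.93), Msr1 (-1.55: 1.08 and 2.63), Osgin1 (-0.68: 1.70 and 2.39), Sod2 (-0.51: 1.24 and 1.76) and Spp1 (-1.48: 1.75 and 3.23).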

How the results depend on the processing

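Of the 154 genes named, 152 passed the test, 111 of them in each of the 26 alternatives; 142 kept the call with GC and length correction, 146 with the CCR2low libraries alone and 143 without replicate 3 of both genotypes. The counts of 2331 higher and 3903 lower genes became 933 and 1099 when libraries were scaled on macrophage identity genes and 948 and 1447 in a test against a 1.5-fold change. Lower genes numbered 2470 with a minimum mean of 1 CPM and 2487 with the CCR2low libraries alone. Leaving out 1 library in turn gave 1763 to 3448 higher and 2441 to 3824 lower genes, with 2441, 2443 and 2493 lower genes without Bhlhe41Cre CCR2hi replicate 1, 2 and 3; higher genes then numbered 3123, 3073 and 3157, and 3448 without WT CCR2hi replicate 1, although none of these is a CCR2low library. The median change of all genes moved in the same settings, from -0.19 to 0.0012, 2.8e-05, 0.0013 and 0.0025. Genes whose calls ended there moved by a like amount, such as Bhlhe41 from -0.77 to -0.57 and Cxcl16 from -0.56 to -0.36. A call that ended without 1 of these CCR2hi libraries thus went with a shift of all genes and is not particular to that gene. Why the centre moved was not tested. The median change of all genes moved from -0.19 to as far as 0.01 (minimum mean of 1 CPM). Genes called with opposite directions in an alternative numbered 0, except 19 under GC and length correction. Gdf15, not called, turned from -0.40 to 0.18 under that correction. With the replicate number as a block there were 2168 higher and 3739 lower genes. The numbers did not pair CCR2low libraries across genotypes: residuals of same-numbered WT and Bhlhe41Cre CCR2low libraries correlated at -0.21, -0.06 and -0.26. A pairing of CCR2low with CCR2hi libraries of the same number and genotype was not tested. In Bhlhe41Cre, summed Y-linked counts were lowest in replicate 3 of both gates (105 in CCR2low and 182 in CCR2hi). With 3 libraries per group, differences for genes of a few CPM are the least certain.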
